A study of Mus musculus with 4 samples.

Results

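The 9 genes described here encode RNA-binding proteins and splicing regulators of male germ cells, namely Ddx25, Ybx2, Ybx3, Boll, Elavl2, Ptbp1, Ptbp2, Rbmxl2 and Adad1. They were taken by symbol from a table of 54232 mouse genes, and all 9 had enough reads to be tested. RNA was sequenced with strand information from whole testes collected on postnatal day 17 from B6D2F1 mice. The 2 KO libraries came from conditional Dis3 knockout mice and the 2 WT libraries from Dis3 wild-type controls of the same strain and age. The product of Dis3 is an exonuclease of the nuclear exosome, a complex that trims and degrades RNA. The Cre line that drove the deletion, and the cells in which it acted, are not stated in the labels. The labels do not tie the libraries to separate animals, so all p-values reflect the spread between libraries, which may be technical.

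Male germ cells make many of their mRNAs well before the protein is needed, because transcription stops as the sperm nucleus condenses. RNA-binding proteins store these mRNAs, carry them to the cytoplasm and time their translation. The switch into meiosis also changes splicing, and germ cells express paralogs of splicing regulators that other tissues use, such as Ptbp2 beside Ptbp1 and Rbmxl2 beside Rbmx. Rbmxl2 sits on an autosome, whereas Rbmx is X-linked and falls under the silencing of the sex chromosomes in meiosis. On postnatal day 17 the most advanced germ cells of a mouse testis are spermatocytes in meiotic prophase.

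Gene tables held 17663416 and 19255782 reads in KO libraries, against 31031920 and 40329170 reads in WT libraries. Dis3 itself had 39.6 and 42.9 CPM (reads per 1000000 of the TMM-scaled library size) in KO testes, against 80.3 and 80.7 CPM in WT testes. Its log2 fold change, KO over WT, was -0.96 ± 0.0729 (SE; edgeR quasi-likelihood test, adjusted p = 2.34e-09). Reads over the whole gene were counted in whole testis, so any cells that keep the gene would contribute. The source of the remaining Dis3 reads was not tested. Marker genes of germ cells and somatic cells were all detected, none of them at 0 in all 4 libraries. Summed markers of pachytene spermatocytes had 3539 and 3263 CPM in KO testes, against 5404 and 5619 CPM in WT testes, and all 14 were lower. Of 18 early meiotic prophase markers 17 were lower, with sums of 3711 and 3683 CPM in KO testes, against 5146 and 5266 CPM in WT testes. Of 15 Sertoli cell markers 6 were higher and 0 lower, with sums of 6875 and 6676 CPM in KO testes, against 6166 and 6184 CPM in WT testes, and 9 of 10 macrophage markers were higher. No Sertoli or macrophage marker was lower at an unadjusted p under 0.05 or by DESeq2, which called 1 Sertoli and 8 macrophage markers higher. Of 8 differentiating spermatogonia markers 6 were lower and 0 higher, and of 10 undifferentiated ones 1 was lower and 0 higher. Of 6 spermatid markers tested 2 were lower and 0 higher. Leydig cell markers had 2 lower and 2 higher of 8, and peritubular myoid cell markers 1 lower and 1 higher of 6. Of 6 endothelial cell markers 0 were lower and 2 higher. Among all 25076 genes tested, 20.3% were lower and 11.6% higher. In whole testes, fewer cells of a type and less RNA per cell cannot be told apart, and the part of cell composition in the values below was not tested.

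Start regions of 3 genes are shown here because they belong to the germ cell forms Ybx2 and Rbmxl2, which were lower in KO, and to Ptbp1, which did not pass the test. Each runs from 250 bases before to 50 bases after a RefSeq start site, in build GRCm38.p6. Capitals mark matches, on either strand, to CCAAT, the core of the Y-box that gave the Y-box proteins their name, and to AACNGNC, a pattern of MYB-family factors. The Ybx2 window lies at chr11:69935649-69935948 on the plus strand, the Rbmxl2 window at chr7:107209195-107209494 on the plus strand, and the Ptbp1 window at chr10:79854182-79854481 on the plus strand.
Ybx2: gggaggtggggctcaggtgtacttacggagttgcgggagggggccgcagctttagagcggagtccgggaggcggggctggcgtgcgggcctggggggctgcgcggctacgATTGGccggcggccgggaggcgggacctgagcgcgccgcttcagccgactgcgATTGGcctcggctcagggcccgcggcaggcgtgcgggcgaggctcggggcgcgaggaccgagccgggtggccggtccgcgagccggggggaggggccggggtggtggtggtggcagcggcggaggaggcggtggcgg
Rbmxl2: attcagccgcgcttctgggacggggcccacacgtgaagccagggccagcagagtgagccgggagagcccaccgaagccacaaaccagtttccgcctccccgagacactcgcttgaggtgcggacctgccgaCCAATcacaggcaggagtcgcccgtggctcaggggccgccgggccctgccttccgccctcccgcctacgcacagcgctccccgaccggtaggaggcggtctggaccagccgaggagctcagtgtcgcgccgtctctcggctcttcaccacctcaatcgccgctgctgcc
Ptbp1: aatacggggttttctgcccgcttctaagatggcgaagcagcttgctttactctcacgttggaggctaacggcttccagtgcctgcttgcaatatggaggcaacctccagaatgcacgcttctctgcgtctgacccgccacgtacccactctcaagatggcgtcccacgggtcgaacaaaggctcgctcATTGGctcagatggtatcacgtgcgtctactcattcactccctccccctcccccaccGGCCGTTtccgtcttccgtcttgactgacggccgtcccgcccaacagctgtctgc

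The Ybx2 window held 2 CCAAT matches, both on the opposite strand, at positions -140 and -87 from the start site. Rbmxl2 held 1 at -119 on its own strand, and Ptbp1 held 1 at -62 and an AACNGNC match at -5, both on the opposite strand. RefSeq windows were found for 8 of the 9 members, Adad1 being the exception. CCAAT occurred in 4 of these 8 (Ddx25, Ybx2, Ptbp1 and Rbmxl2) and in 37.4% of all 32851 windows. AACNGNC occurred in 2 of the 8 (Elavl2 and Ptbp1) and in 32.8% of all windows. The cyclic AMP response element TGACGTCA occurred in 0 of the 8 and in 1.79% of all windows. CCAAT was thus present in windows of genes that were lower in KO and in that of the gene that did not pass the test. A match describes the letters only. The start sites used for Ptbp2, Elavl2 and Boll lay 1078, 801 and 284 bases from the annotated gene starts. Their windows do not cover those annotated starts.

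The first comparison asked how the 9 genes differed between KO and WT testes. All members but Ptbp1 were lower in KO (8 of 9 lower, 0 higher, at an adjusted p under 0.05 in edgeR). Ptbp1 also did not pass at an unadjusted p under 0.05, and DESeq2 also gave 8 lower and 0 higher. Scaling to early meiotic prophase markers, described below, gave 4 lower and 1 higher. Their median log2 fold change was -0.57. Of all 25076 genes tested, 20.3% were lower and 11.6% higher, with a median of 0.05. The background differs for well-expressed genes, and all 9 members are among the 16363 genes with at least 5 times the background reads of a library. Of these, 31.1% were lower and 8.44% higher, with a median of -0.13. Of the 5700 genes at least as high in average log2 CPM as the lowest member, 2889 were lower, with a median of -0.18. That is a larger share than in either wider set. Both KO libraries lay below both WT libraries in the 8 genes that passed, as they did in 32.7% of all genes tested, while both lay above in 35.6%.

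**Figure D1:**
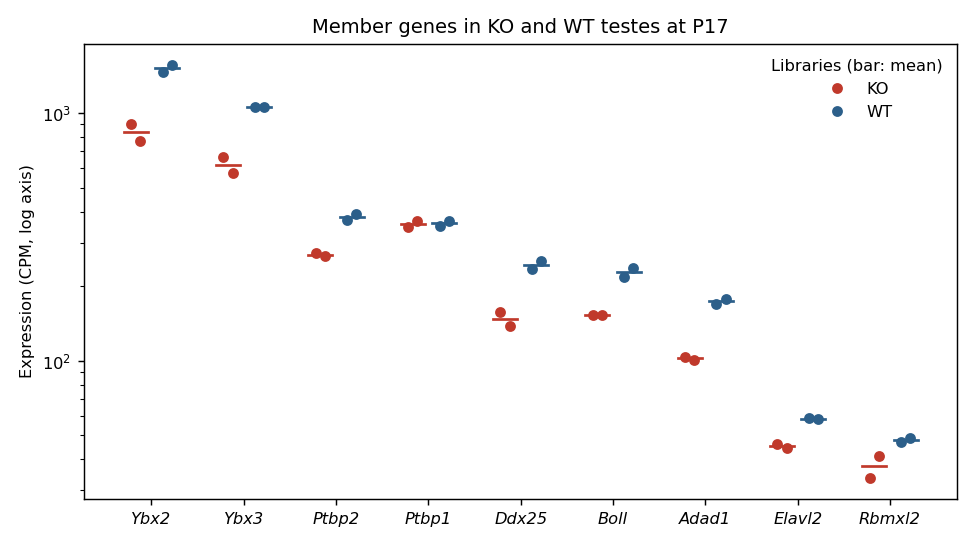
Expression of the 9 members in CPM on a log axis, with a point for each library, a bar for the mean of 2, KO left of WT. The KO points lie below the WT points in every gene except Ptbp1, where they overlap.

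The Y-box proteins coat mRNAs and hold them in store. Ybx2 (MSY2 in mice, ENSMUSG00000018554.13, GRCm38 chromosome 11, 69935796 to 69941605), the germ cell form, had 902 and 774 CPM in KO testes, against 1468 and 1568 CPM in WT testes. The means were 838 ± 90.9 CPM in KO and 1518 ± 70.6 CPM in WT (SD, n = 2 each), so that KO testes held 55.2% of the WT level. Its log2 fold change of -0.86 ± 0.0715 (edgeR adjusted p = 1.07e-08) was the lowest of the 9. Ybx3 (MSY4 in mice, ENSMUSG00000030189.15, chromosome 6, 131364855 to 131388476), a Y-box protein found in testis and in other tissues, had 667 and 570 CPM in KO testes, against 1055 and 1058 CPM in WT testes. Its log2 fold change was -0.77 ± 0.0691 (edgeR adjusted p = 2.15e-08). In both genes KO replicate 2 was the lower KO library, and both KO libraries lay far below the WT libraries.

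Ddx25 (ENSMUSG00000032101.6, chromosome 9, 35536647 to 35558528) is a DEAD-box RNA helicase of the testis that takes part in export and storage of germ cell mRNAs and is needed for spermatids to mature in mice. It had 157 and 139 CPM in KO testes, against 235 and 254 CPM in WT testes, a log2 fold change of -0.73 ± 0.0664 (edgeR adjusted p = 2.74e-08). Adad1 (ENSMUSG00000027719.15, chromosome 3, 37063527 to 37121930) binds double-stranded RNA and resembles the RNA-editing adenosine deaminases without their known activity. It had 103 and 101 CPM in KO testes, against 170 and 177 CPM in WT testes, a log2 fold change of -0.77 ± 0.0611 (edgeR adjusted p = 4.09e-09). Neither gene showed overlap between the groups. KO testes held 60.4% of the WT level of Ddx25 and 58.8% of that of Adad1.

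Boll (ENSMUSG00000025977.15, chromosome 1, 55248658 to 55363469) is the oldest member of the DAZ family of translation regulators and is required for spermatid development in mice. Its CPM was 153 in each of the KO testes, against 218 and 237 CPM in WT testes, a log2 fold change of -0.57 ± 0.0612 (edgeR adjusted p = 2.07e-07). Elavl2 (ENSMUSG00000008489.18, chromosome 4, 91250763 to 91400785) belongs to the Hu proteins, which bind AU-rich elements of mRNAs. It had 46.2 and 44.5 CPM in KO testes, against 58.7 and 58.1 CPM in WT testes, a log2 fold change of -0.37 ± 0.0736 (edgeR adjusted p = 5.04e-04). The decline of Elavl2 to 77.6% of the WT level was small beside that of Boll, at 67.4%, but its 2 groups were each tight and apart.

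The splicing regulators among the members diverged. Ptbp2 (ENSMUSG00000028134.11, chromosome 3, 119718742 to 119784466), the polypyrimidine tract-binding protein of neurons and germ cells, had 271 and 264 CPM in KO testes, against 369 and 390 CPM in WT testes. Its log2 fold change was -0.50 ± 0.0597 (edgeR adjusted p = 7.77e-07). Ptbp1 (ENSMUSG00000006498.16, chromosome 10, 79854427 to 79864771), the widely expressed form that represses exons next to pyrimidine tracts, had 347 and 368 CPM in KO testes, against 351 and 367 CPM in WT testes. The groups overlapped fully, with a log2 fold change of -0.0059 ± 0.0600 (edgeR adjusted p = 0.952).

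Rbmxl2 (hnRNP G-T, ENSMUSG00000073894.1, chromosome 7, 107209445 to 107210916) is a single-exon gene copied from Rbmx, and its protein keeps meiotic transcripts from being spliced at cryptic sites. It had 33.5 and 41.4 CPM in KO testes, against 47.1 and 48.8 CPM in WT testes, with 611 and 852 reads in KO and 1391 and 1851 reads in WT. Its log2 fold change was -0.35 ± 0.0891 (edgeR adjusted p = 0.00399), the weakest of the 8 calls. Without KO replicate 1 it was -0.24 and no longer passed (edgeR adjusted p = 0.0633), whereas without KO replicate 2 it was -0.57.

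Levels of different genes can be compared roughly per kilobase of exonic length. That length covers all annotated exons of a gene, which its testis transcripts need not all hold. On this measure Ybx2 stood highest in both genotypes. Its level was 445 CPM per kilobase in KO and 805 CPM per kilobase in WT. Ybx3 came second with 201 CPM per kilobase in KO and 344 CPM per kilobase in WT, and then Ptbp1 with 75.4 CPM per kilobase in KO and 75.7 CPM per kilobase in WT. Boll, Adad1 and Ptbp2 followed in this order in both genotypes. The order changed once, as Rbmxl2 (25.4 CPM per kilobase) stood above Ddx25 (21.3 CPM per kilobase) in KO, while in WT Rbmxl2 (32.6 CPM per kilobase) stood below Ddx25 (35.2 CPM per kilobase). Elavl2 was lowest, with 5.45 CPM per kilobase in KO and 7.03 CPM per kilobase in WT. No neighbours in either order had overlapping ranges over their 2 libraries.

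The next comparison set each germ cell form against a broadly expressed relative within the same library, so that the ratio does not depend on library scaling. Ratios were formed from read counts, and 4 pairs were compared. With 2 libraries against 2, an exact two-sided permutation test over the 6 relabellings cannot give a p below 0.333, and each of the 4 pairs had p = 0.333 (adjusted p = 0.333). The sizes are therefore read against the spread between libraries.

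Ptbp2 over Ptbp1 was 0.782 and 0.717 in KO libraries, against 1.05 and 1.06 in WT libraries. The log2 ratio was lower in KO by a difference of -0.50, with a pooled SD between libraries of 0.0626. Ptbp2 reads thus outnumbered Ptbp1 reads in the WT libraries and not in the KO libraries, without correction for length. Exonic length, over all annotated exons, is 9175 bases for Ptbp2 and 4740 bases for Ptbp1. Per kilobase, Ptbp1 stood above Ptbp2 in both genotypes, at 75.4 against 29.2 CPM per kilobase in KO and 75.7 against 41.4 CPM per kilobase in WT. Rbmxl2 over Rbmx was 1.53 and 1.76 in KO libraries, against 3.20 and 3.05 in WT libraries, a difference in log2 ratio of -0.93 (pooled SD 0.106).

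Ybx2 was set against Ybx1, the widely expressed Y-box protein, and against its fellow member Ybx3. Ybx2 over Ybx1 was 1.21 and 1.17 in KO libraries, against 1.55 and 1.70 in WT libraries, a difference in log2 ratio of -0.45 (pooled SD 0.0685). Ybx2 over Ybx3 was 1.35 and 1.36 in KO libraries, against 1.39 and 1.48 in WT libraries, a difference of -0.08 (pooled SD 0.0450). The KO libraries lay below the WT libraries in all 4 pairs, although for Ybx2 over Ybx3 the gap between the nearest libraries was smaller than the spread of the WT libraries.

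**Figure D2:**
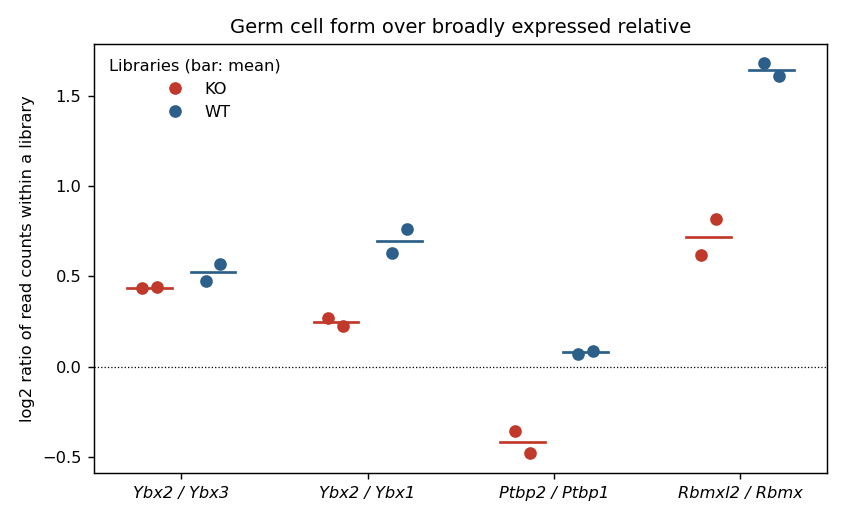
Log2 ratio of the read counts of a germ cell form to a relative within each library, with a point per library and a bar for the mean of 2, KO left of WT. The gap is widest for Rbmxl2 over Rbmx (-0.93) and narrowest for Ybx2 over Ybx3 (-0.08).

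Close relatives of the members were then examined in the same fit. Of 13 relatives, 5 were lower, 1 was higher and 7 did not pass. Their median log2 fold change was -0.16, against -0.57 for the members and -0.13 for well-expressed genes. Of the well-expressed genes, 31.1% were lower and 8.44% higher. Of the 5700 genes at least as high as the lowest member, 2889 were lower. The counts of relatives are therefore not read as particular to them. Among Y-box genes, Ybx1 had 748 and 661 CPM in KO testes, against 948 and 925 CPM in WT testes, a log2 fold change of -0.41 ± 0.0656 (edgeR adjusted p = 3.84e-05). Ybx1 was thus lower as well, by less than Ybx2 and Ybx3. Ptbp3, a further polypyrimidine tract-binding protein, had 124 and 123 CPM in KO testes, against 114 and 108 CPM in WT testes, and did not pass (0.15 ± 0.0618, edgeR adjusted p = 0.0661).

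Rbmx was the relative that rose in this fit, and it was called higher in all 12 alternative settings. With the filter of 1 CPM, Ptbp3 was called higher as well (0.22, edgeR adjusted p = 0.00493). Rbmx is X-linked and encodes hnRNP G, a widely expressed splicing regulator. It had 21.8 and 23.5 CPM in KO testes, against 14.7 and 16.0 CPM in WT testes, a log2 fold change of 0.56 ± 0.106 (edgeR adjusted p = 2.59e-04). Its reads were few, 398 and 483 in KO and 434 and 607 in WT, and Rbmx has near-identical copies elsewhere, among them the retrogene Rbmxl1. The recorded counting command does not show the option that counts reads mapping to several places, so the level of Rbmx and the ratio to Rbmxl2 are uncertain. Rbmxl1 itself did not pass (-0.09 ± 0.0790, edgeR adjusted p = 0.372).

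In the DAZ family, Dazl, which drives translation in germ cells before and during meiosis, had 679 and 720 CPM in KO testes, against 866 and 870 CPM in WT testes. Its log2 fold change of -0.31 ± 0.0609 (edgeR adjusted p = 3.69e-04) was nearer to 0 than that of Boll. The germ cell gene Adad2, related to Adad1, was lower by a similar amount to Adad1, with a log2 fold change of -0.76 ± 0.0956 (edgeR adjusted p = 2.11e-06). The editing enzymes differed from it in size, with Adarb1 at -0.29 ± 0.0957 (edgeR adjusted p = 0.0259) and Adar at 0.11 ± 0.0759 (edgeR adjusted p = 0.266). The call of Adarb1 was lost with the filter of 1 CPM (edgeR adjusted p = 0.0732), without KO replicate 1 (edgeR adjusted p = 0.118) and without WT replicate 1 (edgeR adjusted p = 0.0798). These differences between family members were not themselves tested.

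The Hu protein Elavl1, expressed in most tissues, had 146 and 143 CPM in KO testes, against 166 and 157 CPM in WT testes, and lay just outside the threshold (-0.16 ± 0.0603, edgeR adjusted p = 0.0513). It was called lower in 8 of the 12 alternative settings (among them DESeq2, -0.26, adjusted p = 0.0035), higher in 1, on the prophase scale, and neither in 3. The neuronal Elavl3 (0.01 ± 0.0886, edgeR adjusted p = 0.93) and Elavl4 (-0.40 ± 0.211, edgeR adjusted p = 0.15) did not pass either. Elavl4 had few reads, 75 and 63 in KO and 149 and 167 in WT. Beside Ddx25, the mRNA export helicase Ddx19b was lower (-0.50 ± 0.0632, edgeR adjusted p = 1.75e-06) and its paralog Ddx19a did not pass (0.12 ± 0.0789, edgeR adjusted p = 0.26).

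**Figure D3:**
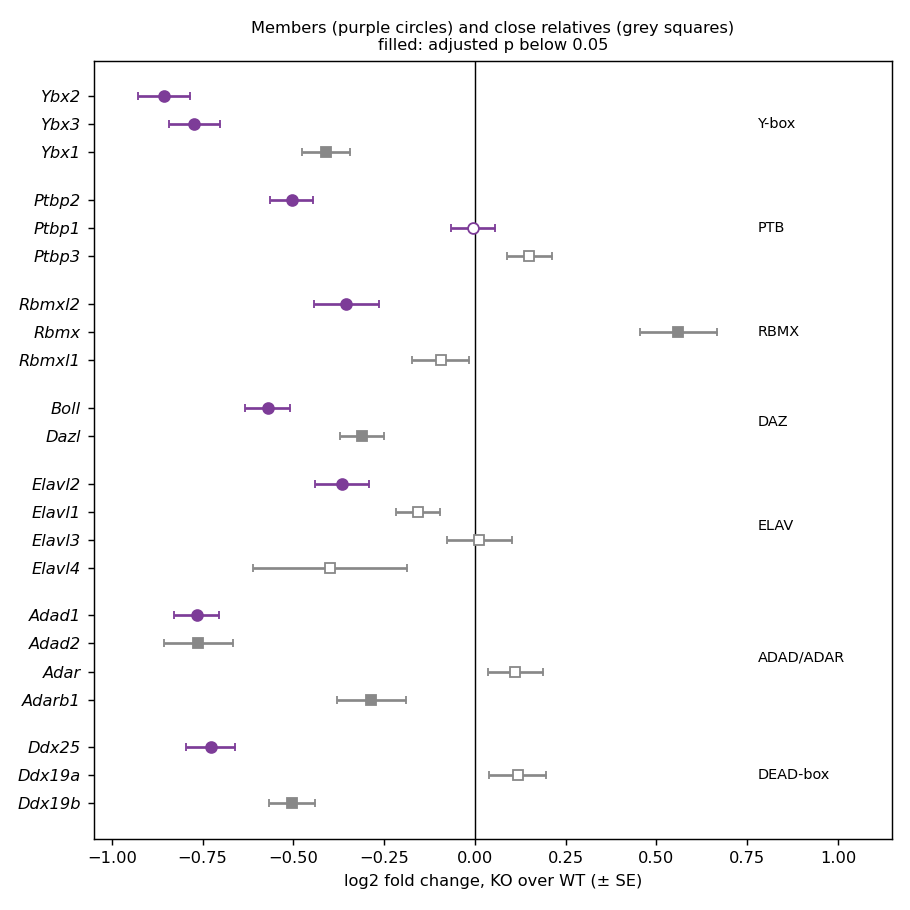
Log2 fold change, KO over WT, of members (purple circles) and close relatives (grey squares), grouped by family, with SE bars and filled symbols for an adjusted p under 0.05. Filled members lie left of 0, Ptbp1 lies at 0, and Rbmx is the filled symbol to the right.

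How far the members declined depends on what the libraries are scaled to. Scaling the libraries to the 18 early meiotic prophase markers, which were themselves lower in KO, moved the median log2 fold change of all tested genes by 0.49 relative to TMM. On that scale 4 members were lower and 1 higher, against 641 lower and 14449 higher among all genes tested. Ybx2 (-0.36, edgeR adjusted p = 7.55e-05), Ybx3 (-0.28, edgeR adjusted p = 9.47e-04), Adad1 (-0.27, edgeR adjusted p = 3.88e-04) and Ddx25 (-0.23, edgeR adjusted p = 0.00274) were lower relative to the summed reads of these markers. Single markers ranged from -0.88 to -0.20 under TMM, with a median of -0.41. Some of them thus fell as far as these members. Boll (-0.08, edgeR adjusted p = 0.24) and Ptbp2 (-0.01, edgeR adjusted p = 0.872) did not pass. Elavl2 (0.13, edgeR adjusted p = 0.124) and Rbmxl2 (0.14, edgeR adjusted p = 0.171) turned to a positive sign without passing. Ptbp1 was higher on this scale (0.49, edgeR adjusted p = 1.76e-07).

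Of the 13 relatives, 1 was lower and 8 were higher on the prophase scale, against 641 lower and 14449 higher among all 25076 genes tested. Adad2 (-0.27, edgeR adjusted p = 0.0217) kept its call, as did Rbmx (1.06) in the other direction, and Ptbp3 (0.64), Ddx19a (0.61), Adar (0.61), Elavl3 (0.51), Rbmxl1 (0.40), Elavl1 (0.34) and Dazl (0.18, edgeR adjusted p = 0.00832) were called higher. Ybx1 (0.08, edgeR adjusted p = 0.232), Ddx19b (-0.01, edgeR adjusted p = 0.888) and Adarb1 (0.21, edgeR adjusted p = 0.0653) lost their calls. The pachytene markers had a median log2 fold change of -0.88 under TMM, lower than that of any member. Scaling to Sertoli cell markers, which moved the median of all genes by -0.13, left 8 members lower and 0 higher. Among all genes tested, the lower genes made up 80.4% of the calls under that scaling, against 63.7% under TMM and 4.25% under prophase scaling.

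**Figure D4:**
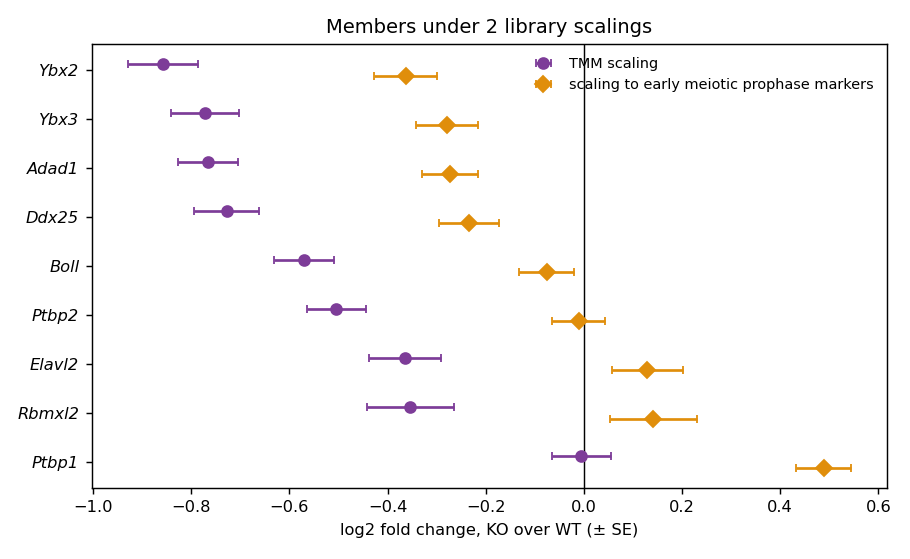
Log2 fold change, KO over WT, of the 9 members with SE bars under TMM scaling (circles) and under scaling to early meiotic prophase markers (diamonds). The diamonds of Ybx2, Ybx3, Adad1 and Ddx25 stay left of 0, and that of Ptbp1 lies at 0.49.

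Other genes of the same processes were counted without being members. Of 20 further germ cell RNA-binding protein genes, 14 were lower, 0 higher and 6 did not pass, with a median log2 fold change of -0.47. At an unadjusted p under 0.05, 15 were lower and 0 higher, and DESeq2 gave 14 lower and 0 higher. Pabpc6, of the cytoplasmic poly(A)-binding proteins, was lowest (-0.83 ± 0.0691, edgeR adjusted p = 8.27e-09). Tarbp2, a double-stranded RNA-binding partner of Dicer that also acts on protamine mRNA, was at -0.60 ± 0.107 (edgeR adjusted p = 1.35e-04). Rbm44, a protein of the bridges between germ cells, was at -0.60 ± 0.0682 (edgeR adjusted p = 4.91e-07), and the germ cell helicase gene Ddx4 at -0.57 ± 0.0590 (edgeR adjusted p = 1.35e-07). On the prophase scale the list had 1 gene lower and 5 higher. Pabpc6 (-0.34, edgeR adjusted p = 2.01e-04) kept its call there, and Tarbp2 (-0.11, edgeR adjusted p = 0.391), Rbm44 (-0.10, edgeR adjusted p = 0.18) and Ddx4 (-0.07, edgeR adjusted p = 0.239) did not. Of 42 other splicing regulators, 20 were lower, 4 higher and 18 did not pass, with a median of -0.18, near the -0.13 of well-expressed genes. With DESeq2, 22 of these were lower and 1 higher, and on the prophase scale 0 were lower and 32 higher. In the main edgeR fit, 31.1% of well-expressed genes were lower and 8.44% higher. Of the 5700 genes at least as high as the lowest member, 2889 were lower, with a median of -0.18. On the prophase scale 641 of all 25076 genes tested were lower and 14449 higher.

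Genes reported in mice as targets of Rbmxl2 or Ybx2 were looked at as well. Kdm4d, a histone demethylase gene, had 21.3 and 21.4 CPM in KO testes, against 38.7 and 37.8 CPM in WT testes (-0.84 ± 0.0888, edgeR adjusted p = 1.71e-07). Meioc, which acts at entry into meiotic prophase, was at -0.58 ± 0.0591 (edgeR adjusted p = 9.04e-08). The DNA repair gene Brca2 was at -0.41 ± 0.0650 (edgeR adjusted p = 4.00e-05) and the cohesin acetyltransferase gene Esco1 at -0.22 ± 0.0637 (edgeR adjusted p = 0.0102). On the prophase scale Kdm4d (-0.35, edgeR adjusted p = 0.00241) stayed lower, Meioc (-0.09, edgeR adjusted p = 0.144) and Brca2 (0.09, edgeR adjusted p = 0.198) did not pass, and Esco1 (0.27, edgeR adjusted p = 6.40e-04) was called higher. The call of Esco1 was also lost with the filter of 1 CPM (-0.15, edgeR adjusted p = 0.0501) and without WT replicate 2 (-0.19, edgeR adjusted p = 0.122). All 4 are targets of Rbmxl2 in splicing, and counts per gene do not show splicing, which was not analysed here. The spermatid mRNAs bound by Ybx2, namely Prm1, Prm2, Tnp1, Tnp2 and Smcp, had 0 to 12 reads per library and were not tested. Storage of their mRNAs therefore could not be examined in testes of this age.

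The deposited data also count reads in the 3000 bases upstream of genes, on the same strand as the gene (sense) and on the other (antisense), where short-lived RNA made near promoters can be seen. Such RNA is a known substrate of the nuclear exosome. Regions were given for 7 of the 9 members (not for Ddx25 and Ptbp1). No member region passed the test on either strand in edgeR, although with a replicate block sense reads upstream of Ybx2 did (1.86, edgeR adjusted p = 0.0197). The share of all regions called with that block was not counted. Of all regions tested in the fit without the block, 0.00544% were lower and 0.0544% higher in sense (18393 tested). In antisense, 0.113% were lower and 11.5% higher (18596 tested). At an unadjusted p under 0.05, 3 of 7 member regions were higher in sense and 2 of 6 in antisense, and 0 lower. Of all regions, 31.1% were higher and 0.495% lower in sense at that level, and 38.6% higher and 0.436% lower in antisense. The median log2 fold change of all regions was 0.93 in sense and 1.01 in antisense, so that regions generally held more reads per gene read in KO. The reads per region in regions of untested genes, a measure of background, were 9.41 and 10.6 in KO libraries, against 8.55 and 8.05 in WT libraries. The TMM-scaled library sizes were 18225655 and 20591712 in KO, against 29558135 and 37922109 in WT. Background per scaled read was thus higher in KO.

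Boll had the most antisense reads upstream among members, 116 and 105 in KO libraries, against 178 and 213 in WT libraries, which after scaling gave a log2 fold change of -0.02 ± 0.195 (edgeR adjusted p = 0.93). Upstream of Ybx2 (chromosome 11, 69932796 to 69935795) there were 71 and 77 antisense reads in KO libraries, against 63 and 107 in WT libraries (0.61 ± 0.243, edgeR adjusted p = 0.0861). Rbmxl2 had 38 and 57 antisense reads in KO libraries, against 79 and 71 in WT libraries (0.11 ± 0.287, edgeR adjusted p = 0.771). These 3 regions, the best covered among members, had fold changes under the median of all regions. That median also covers regions near background, which was itself higher in KO per scaled read. The part of background in this difference was not tested. Adad1, with 29 and 21 antisense reads in KO libraries, against 17 and 20 in WT libraries, had the highest value of the members (1.23 ± 0.435, edgeR adjusted p = 0.0656).

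Leaving out WT replicate 1 added calls. Without it, sense reads upstream of Ybx2 (log2 fold change 3.18) and Ptbp2 (2.62) and antisense reads upstream of Adad1 (1.29) were called higher. The share of all regions called in that fit was not counted, so these calls cannot be read as particular to members. The remaining WT library then had 5 sense reads upstream of each of Ybx2 and Ptbp2. The lone WT library in that fit is assumed to vary like the KO libraries.

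The region upstream of Dazl, the relative of Boll, had far more reads in KO, and it was singled out after its values were seen. It lies at chromosome 17, 50293637 to 50296636, and had 240 and 186 antisense reads in KO libraries, against 33 and 34 in WT libraries. The log2 fold change was 3.47 ± 0.247 (edgeR adjusted p = 2.94e-06), with the smallest p of the 18596 regions tested and the rank of 40 by fold change. Per 1000 reads of the gene itself, there were 19.4 and 12.6 antisense reads in KO libraries, against 1.29 and 1.03 in WT libraries. Sense reads in the same region, 43 and 33 in KO libraries, against 51 and 73 in WT libraries, did not pass (0.11 ± 0.305, edgeR adjusted p = 0.805). Among the other relatives with an antisense region tested, Ddx19a was called higher (1.69 ± 0.484, edgeR adjusted p = 0.0387).

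**Figure D5:**
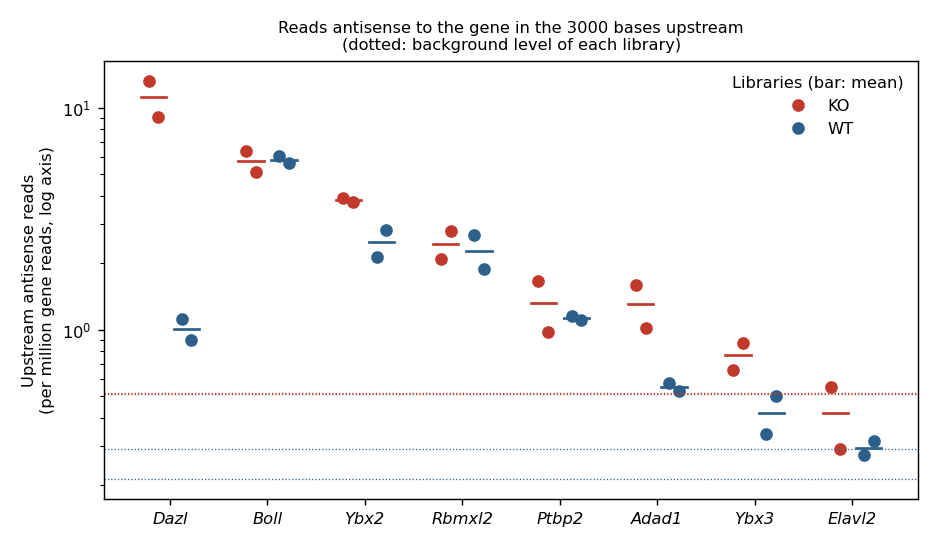
Antisense reads in the 3000 bases upstream of Dazl and of the 7 members with such a region, per 1000000 gene reads on a log axis, with a point per library, a bar for the mean of 2, KO left of WT, and dotted lines for each library's background. Dazl has 13.2 and 9.03 in KO, against 1.12 and 0.897 in WT, while Boll lies between 5.10 and 6.36 in all 4 libraries.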

How the data were processed

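RNA was measured in 4 libraries of whole testis, 2 KO and 2 WT, grouped by sample title. The deposited values are raw read counts per gene and per 3000-base upstream region, made by the authors with featureCounts 1.6.4 and GENCODE M18, strand-specifically, per the file headers. Trimming with cutadapt and alignment with HISAT2 to GRCm38.p5 are named, with no tool versions, in the submitters' processing notes. Libraries were made with random and poly(T) primers and depletion of targeted transcripts, per the labels' protocols, and the labels name polyA RNA. Symbols came from GENCODE M21 for 99.72% of 54232 genes.

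The gene counts went through filterByExpr and TMM scaling and were tested with the robust quasi-likelihood test of edgeR 4.0.16 (R 4.3.3), with genotype as the model. The threshold was 0.05 after Benjamini-Hochberg adjustment over all 25076 genes. KO libraries had TMM factors of 1.04 and 1.07, and WT libraries of 0.955 and 0.942. An SE is the log2 fold change divided by the square root of F. The depth, 17663416 to 40329170 reads, makes counting error small for every member, and replicates differed beyond it (chi-square per degree of freedom 5.08 in KO and 4.54 in WT). Upstream tables were scaled by the gene table, which keeps any shift they share. Background is a trimmed mean over upstream regions of autosomal genes that were not tested (14248 regions, a fraction of 0.25 dropped at each end). Ratios within a library used a pseudocount of 0.5 read and an exact permutation test. Promoter sequences came from RefSeq, and a motif was searched on both strands, so matches may overlap; where a gene had several windows, the one nearest the annotated start was taken. The fitting script was tested on simulated data.

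The members and the gene lists were chosen with earlier results of these data known. Named were all members and close relatives, Dis3, and from each other list up to 4 called genes with the largest change. Other names were chosen after their values were seen, as Mbnl1, Nxf3, Nanos2, Rbfox1, Nova1, Celf3, Celf4 and Tubb3 were. Alternatives were DESeq2 1.42.0, other scalings and filters, background subtraction, a replicate block, and each library left out; the block for the upstream tables was added after seeing the data. A comparison of member proteins is not analysed here.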

Additional observations from a re-analysis of the deposited data

How the results depend on the processing

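All 8 calls among members kept their direction and passed under DESeq2, median-of-ratios scaling, both other filters, Sertoli scaling, background subtraction and each library left out, except Rbmxl2 without KO replicate 1 (members lower 7 to 8). All 4 pair differences kept their sign. Replicate numbers share no stated source, and deviations of same-numbered libraries correlated at 0.0739 over 15180 genes; a replicate block gave 8 members lower, 5469 genes lower and 3362 higher, and 1 member region higher in sense (Ybx2, 1.86).

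Scaling to prophase markers gave 4 members lower and 1 higher, with 641 genes lower and 14449 higher, and turned the sign of Elavl2 (0.13), Ptbp1 (0.49), Rbmxl2 (0.14), Ybx1 (0.083), Rbmxl1 (0.40), Elavl1 (0.34), Elavl4 (0.094), Dazl (0.18), Adarb1 (0.21), Celf5 (0.0031), Brca2 (0.089) and Esco1 (0.27). These shifts follow from the scaling itself, which moves all genes. Genes higher in KO numbered 443 with DESeq2, 1937 with no filter, 1784 with Sertoli scaling, 1182 after background subtraction, and 1324 to 2429 with a library left out, against 2906; the cause was not tested.

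Values near 0 changed sign. Ptbp1 was 0.062 with the filter of 1 CPM and between -0.10 and 0.011 with a library left out. Elavl3 was -0.093 (DESeq2), -0.0065 (median of ratios), -0.057 (no filter), -0.12 (Sertoli scaling), -0.014 (background subtracted) and between -0.096 and 0.043 with a library left out. Under Sertoli scaling Adar was -0.020 and Ddx19a -0.016, and with a library left out Adar lay between -0.024 and 0.16. Upstream antisense values with the table's own scaling were -0.34 for Ybx2 and -0.81 for Rbmxl2, and with a library left out Boll lay between -0.19 and 0.13 and Rbmxl2 between -0.13 and 0.38. Member regions higher ranged from 0 to 2 in sense and 0 to 1 in antisense with a library left out. Depth limits the upstream regions most, where members had 5 to 213 reads.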

Other observations

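Among the 42 other splicing regulators, the 4 that were higher in KO were Srrm4, Rbfox3, Nova2 and Mbnl1. Srrm4, which promotes inclusion of microexons, had 6.80 and 6.02 CPM in KO testes, against 3.62 and 3.51 CPM in WT testes (log2 fold change 0.85 ± 0.188, edgeR adjusted p = 0.00129). Its call held in all 12 alternatives tried. Rbfox3, the NeuN antigen gene, had 3.95 and 4.61 CPM in KO testes, against 2.81 and 2.93 CPM in WT testes (0.58 ± 0.219, edgeR adjusted p = 0.0466). Nova2 had 10.9 and 9.03 CPM in KO testes, against 7.04 and 7.25 CPM in WT testes (0.48 ± 0.150, edgeR adjusted p = 0.0176). Rbfox3 was called in 3 of the 12 alternatives and lost its call in 9, among them DESeq2 (0.47, adjusted p = 0.338), background subtraction (0.46, edgeR adjusted p = 0.181) and each library left out. Nova2 was called in 5 of the 12 and lost its call in 7, among them DESeq2 (0.37, adjusted p = 0.242) and background subtraction (0.40, edgeR adjusted p = 0.0753). These 3 genes lie near background, Srrm4 at 4.61 times, Rbfox3 at 5.09 times and Nova2 at 8.50 times the level expected for their length. Of 7 neuron markers, Rbfox3 among them, 4 were higher, and DESeq2 called 0 higher. These 4 markers lay at 1.7 to 5.09 times background. Sums of all 7 were 97.5 and 103 CPM in KO testes, against 97.8 and 100.2 CPM in WT testes. Most of each sum came from Tubb3, at 376 times background, which did not pass. It had 73.4 and 79.8 CPM in KO testes, against 81.0 and 84.0 CPM in WT testes. The sums therefore say little about the other markers. The part of background in these values was not tested. The fourth regulator was Mbnl1, widely expressed and far above background, with 220 and 217 CPM in KO testes, against 178 and 184 CPM in WT testes (0.27 ± 0.0585, edgeR adjusted p = 0.00102). DESeq2 and the fit with no filter each called only 1 of the 42 higher, which was Srrm4, so Mbnl1 lost its call in both.

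Of others in the list that are known from neurons, Rbfox1 (1.05 ± 0.429, 20 and 35 reads in KO and 25 and 20 reads in WT), Nova1 (-0.0094 ± 0.161), Celf3 (0.29 ± 0.251) and Celf4 (-0.09 ± 0.120) did not pass. Celf5 was lower, with 6.69 and 7.04 CPM in KO testes, against 10.5 and 8.89 CPM in WT testes (-0.49 ± 0.152, edgeR adjusted p = 0.0164), a call lost without WT replicate 1 (-0.41, edgeR adjusted p = 0.0959) and on the prophase scale. Among further germ cell RNA-binding protein genes, 2 had a value above 0, and neither passed. The export factor gene Nxf3 had 218 and 207 CPM in KO testes, against 199 and 200.3 CPM in WT testes (0.09 ± 0.0590, edgeR adjusted p = 0.262). Nanos2, a gene of spermatogonial stem cells, had 7 and 27 reads in KO libraries, against 15 and 31 reads in WT libraries (0.36 ± 0.525, edgeR adjusted p = 0.629).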
